A study of Homo sapiens with 8 samples.

Results

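Transcripts of 10 chemokine ligands were followed in H1975 and HCC44, both human lines of lung cancer, after culture with ACBI1 or with its solvent DMSO. The 10 genes were CXCL1, CXCL2, CXCL3, CXCL5, CXCL6, CXCL8, CXCL16, CCL2, CCL5 and CCL20. They were taken as CXC and CC ligands known for attracting neutrophils, monocytes and other leukocytes. The choice was made with earlier results of these data known, so counts and medians over the 10 only describe them. All 10 were among the 61228 gene names in the count tables, and all 10 passed the filter on low counts. ACBI1 is a degrader that joins the bromodomains of SMARCA2, SMARCA4 and PBRM1, parts of SWI/SNF chromatin remodelling complexes, to the VHL ubiquitin ligase. The 4 groups were H1975 with DMSO, H1975 with ACBI1, HCC44 with DMSO and HCC44 with ACBI1, each with 2 libraries of total RNA taken after 96 hours. Both lines are labelled wild type, and the labels give the ACBI1 concentration as 1 mM, a unit that was not verified here. The series concerns SMARCA4-mutant lung cancer, immunity and the STING pathway, so the comparisons ask how chemokine transcripts respond when SWI/SNF subunits are targeted in each line. The libraries come from cultured cells of 1 line each, and nothing in the labels says that replicates were separate cultures, so p-values measure only the spread between these libraries.

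Chemokines are small secreted proteins that bind G protein-coupled receptors on leukocytes and guide their movement. CXC ligands with a Glu-Leu-Arg motif before the first cysteines, called ELR CXC chemokines, act on CXCR1 and CXCR2 and attract neutrophils, and CXCL1, CXCL2, CXCL3, CXCL5, CXCL6 and CXCL8 belong to this class. CXCL16 is made as a membrane-anchored protein that is shed and binds CXCR6 on T cells and NKT cells. CCL2 attracts monocytes through CCR2, CCL5 attracts T cells and monocytes, and CCL20 attracts CCR6-bearing lymphocytes and dendritic cells. In epithelial tumour cells many of these genes are known targets of NF-kB and AP-1 downstream of IL1 and TNF.

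The 6 ELR CXC genes lie together on chromosome 4, within 358.8 kb between positions 73740506 and 74099293 of GRCh38 in GENCODE release 29, an annotation of the genome build named hg38 in the submitters' processing notes. CXCL16, CCL2 and CCL5 lie on chromosome 17 and CCL20 on chromosome 2. RefSeq promoter sequences of build GRCh38.p14 were matched for 7 of the 10 genes, not for CXCL16, CCL2 and CCL5. The last 150 bases before each gene start are shown because the ELR CXC genes share a motif there and yet differed in their response to ACBI1. They come from chr4:73869243-73869392 (plus strand, CXCL1), chr4:74099196-74099345 (minus, CXCL2), chr4:74038690-74038839 (minus, CXCL3), chr4:73998678-73998827 (minus, CXCL5), chr4:73836528-73836677 (plus, CXCL6), chr4:73740419-73740568 (plus, CXCL8) and chr2:227813692-227813841 (plus, CCL20). Capitals mark matches to the kappaB consensus or to its core GGAATTTCC, to the AP-1 motif TGANTCA and, on the gene's strand, to the TATA box TATAAA.
CXCL1: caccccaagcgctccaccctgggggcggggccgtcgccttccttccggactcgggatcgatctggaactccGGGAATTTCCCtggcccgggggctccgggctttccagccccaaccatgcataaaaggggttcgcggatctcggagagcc
CXCL2: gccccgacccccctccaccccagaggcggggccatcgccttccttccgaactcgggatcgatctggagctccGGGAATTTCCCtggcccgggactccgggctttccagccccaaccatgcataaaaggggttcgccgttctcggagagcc
CXCL3: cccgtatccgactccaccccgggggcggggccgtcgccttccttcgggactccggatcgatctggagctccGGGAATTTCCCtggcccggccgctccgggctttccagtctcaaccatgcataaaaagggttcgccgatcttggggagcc
CXCL5: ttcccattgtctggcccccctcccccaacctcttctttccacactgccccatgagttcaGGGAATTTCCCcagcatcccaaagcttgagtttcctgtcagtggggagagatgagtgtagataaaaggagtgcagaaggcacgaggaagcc
CXCL6: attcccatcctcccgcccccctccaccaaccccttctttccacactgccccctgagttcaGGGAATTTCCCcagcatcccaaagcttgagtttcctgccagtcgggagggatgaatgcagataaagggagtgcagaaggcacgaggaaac
CXCL8: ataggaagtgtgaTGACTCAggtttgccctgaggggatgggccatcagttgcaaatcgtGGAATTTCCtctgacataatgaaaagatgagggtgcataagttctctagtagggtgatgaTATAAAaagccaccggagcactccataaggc
CCL20: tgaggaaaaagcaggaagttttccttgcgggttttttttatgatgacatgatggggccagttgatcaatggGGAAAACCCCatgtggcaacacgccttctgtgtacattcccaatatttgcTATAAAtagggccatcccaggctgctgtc

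CXCL1, CXCL2, CXCL3, CXCL5 and CXCL6 carried the same 11-base string GGGAATTTCCC, which holds overlapping kappaB consensus matches on both strands. CXCL8 carried the core GGAATTTCC without the outer bases, and CCL20 carried another kappaB consensus match on the opposite strand. In the 250 bases before the start, 6 of the 7 genes held the consensus (not CXCL8) and 6 of the 7 held the core (not CCL20). The consensus was found in 9.96% of 35116 RefSeq promoters of the same length, the core in 0.413% and the 11-base string in 0.0769%, counting both strands. The core and the 11-base string were chosen after the sequences had been seen. TGANTCA was found in CXCL8 alone among the 7 genes and in 6.57% of all promoters, and TATAAA in CXCL8 and CCL20 and in 10.7% of all promoters. The 150-base stretches of CXCL1 and CXCL2 were 88.7% identical, those of CXCL5 and CXCL6 89.4%, and those of CXCL1 and CXCL8 47.3%. The RefSeq starts of all but CXCL1 lie inside the GENCODE gene bounds. A match is only a match of letters, and no binding was measured.

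Counts assigned to genes ranged from 62467286 to 70455517 per library. All 8 libraries correlated better with their own replicate (at least 0.9923 in log2 CPM) than with any other group (at most 0.9756). Levels are given as CPM, the usual depth-scaled count, with TMM factors. The summed level of 9 epithelial markers was 5160 to 5420 CPM in H1975 DMSO, 2350 to 2840 in H1975 ACBI1, 940 to 980 in HCC44 DMSO and 1200 to 1660 in HCC44 ACBI1. KRT7 was the largest part in each group, at means of 3054, 1450, 440.8 and 936.1 CPM in that order. In H1975 KRT7, KRT8, KRT18, KRT19 and NAPSA fell with ACBI1 (adjusted p under 0.05, edgeR), while EPCAM, CDH1 and NKX2-1 did not pass. In HCC44 KRT7 and EPCAM rose, KRT8 fell and the other tested markers did not pass. The lung factor NKX2-1 was at 25.9 ± 2.2 CPM (SD, n = 2) in H1975 DMSO and at 0.0159 CPM in HCC44 DMSO, and the surfactant gene SFTPB was under 1 CPM in all 4 groups. Of 10 leukocyte markers, CD3E and FCGR3B had no count in any library and PTPRC had at most 3 counts in a library. ITGAM and ELANE, myeloid genes named after their values were seen, rose with ACBI1 in both lines, from 0.199 to 0.587 and 0.127 to 1.44 CPM for ITGAM and from 0.107 to 0.756 and 0.00784 to 0.0949 CPM for ELANE (means in H1975 and HCC44), and CD14 fell in both, from 2.29 to 1.23 and 3.38 to 1.05 CPM. ITGAM and ELANE passed the filter on low counts only through ACBI1 libraries, so their rises are not independent of it. The summed level of the 10 leukocyte markers was 17.7 to 19.9 CPM in H1975 DMSO and 13.4 to 18 CPM in H1975 ACBI1, mostly from the macrophage receptor gene CSF1R. It was 4.14 to 4.32 CPM in HCC44 DMSO and 3.14 to 4.09 CPM in HCC44 ACBI1. Fibroblast marker sums were 48.9 to 72.1, 25.6 to 30.5, 74.4 to 92.7 and 207 to 411 CPM in the same order, mostly from COL1A1, with DCN at 0 counts in every library. Endothelial marker sums were at most 4.59 CPM in any library. The part of these shifts in the chemokine changes was not tested. Replicate 1 was above replicate 2 in all 4 groups for CXCL1, CXCL2, CXCL3 and CXCL8, by 1.14 to 2.48 times, and the labels name no batch behind the numbers.

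Without ACBI1 the lines differed widely in these transcripts. HCC44 held far more of the ELR CXC ligands and of CCL20 than H1975, while CCL2 was seen in H1975 only. Of the 10 genes, 8 were higher and 1 was lower in HCC44 DMSO than in H1975 DMSO, where 67.9% of all 21307 tested genes were called (adjusted p under 0.05, edgeR), 31.6% as higher and 36.4% as lower in HCC44. The median log2 difference of the 10 was 3.36, against -0.08 over all tested genes. CCL20 passed the filter on low counts only through its HCC44 libraries, and CCL2 only through those of H1975. The calls of these genes between the lines are therefore not independent of the filter.

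CXCL5 and CCL20 had the largest fitted folds, whose order changed when single libraries were left out (8.804 to 9.016 for CXCL5 and 8.215 to 9.921 for CCL20). CXCL5 stood at 0.932 and 0.784 CPM in the H1975 DMSO libraries and at 384.8 and 433.2 CPM in the HCC44 DMSO libraries (log2 difference 8.90 ± 0.21 SE, adjusted p 3.1e-10). CXCL6 had 9 and 6 counts in H1975 DMSO and 2007 and 2155 counts in HCC44 DMSO (8.15 ± 0.24, adjusted p 5.51e-10). CCL20 had 10 and 3 counts in H1975 DMSO and 3555 and 2150 counts in HCC44 DMSO (8.81 ± 0.47, adjusted p 2.66e-07). These 3 genes were close to silent in H1975 and abundant in HCC44. CXCL1 stood at 2.30 and 0.932 CPM in H1975 DMSO and at 98.8 and 82.9 CPM in HCC44 DMSO (5.82 ± 0.43, adjusted p 1.32e-05). CXCL8 stood at 69.9 and 49.6 CPM in H1975 DMSO and at 929.4 and 642.9 CPM in HCC44 DMSO (3.72 ± 0.39, adjusted p 9.46e-05). CXCL3 was higher in HCC44 by 3.01 ± 0.38 and CXCL16 by 1.64 ± 0.17 on the log2 scale, with groups that did not overlap.

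CXCL2 was the ELR CXC gene with the smallest gap between the lines, at 38.6 and 15.6 CPM in H1975 DMSO and at 104.2 and 60.6 CPM in HCC44 DMSO (1.60 ± 0.52, adjusted p 0.0268). That call was lost without the filter (1.59), with the DMSO groups fitted alone (1.64), without H1975 DMSO replicate 2 (1.14), without HCC44 DMSO replicate 1 (1.17) and without any single ACBI1 library (1.60 to 1.64). CCL5 was at 1.76 and 1.52 CPM in H1975 DMSO and at 1.03 and 1.10 CPM in HCC44 DMSO and was not called (-0.62 ± 0.32, adjusted p 0.11). CCL2 had 36 counts in the H1975 DMSO libraries together and 0 in those of HCC44, which is at least 11.5-fold lower in HCC44 against a floor of 3 counts over the group. Counting error alone gave that ratio an exact 95% lower bound of 8.9.

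**Figure D1:**
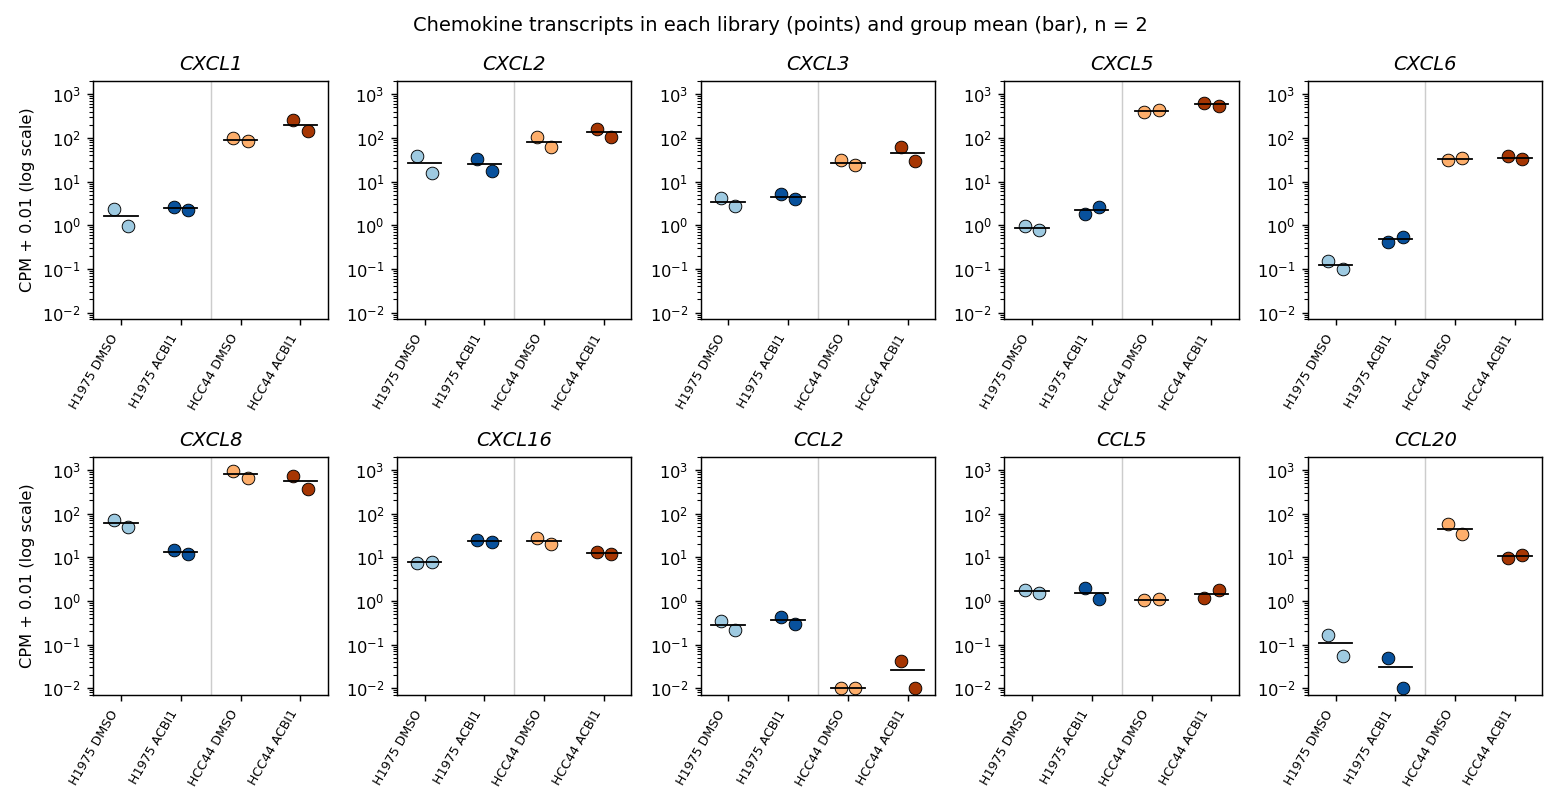
CPM of each chemokine in every library on a log axis, with 0.01 added so that a count of 0 can be drawn; points are libraries, bars are group means (n = 2), blue is H1975, orange is HCC44 and the darker shade is ACBI1. In all panels but those of CCL2 and CCL5 both HCC44 DMSO points lie above both H1975 DMSO points. How many of all genes separate in this way was not counted, and 67.9% of all tested genes were called between these groups. In the CXCL16 panel the dark points move up in blue and down in orange.

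Per length of transcript, with CPM divided by the kilobases of merged GENCODE exons, CXCL8 ranked first of the 10 in H1975 DMSO at 26.3 ± 6.3 CPM per kb (SD, n = 2). CXCL2 followed at 18.1 ± 11, and its libraries, at 25.8 and 10.4 CPM per kb, overlapped those of CXCL8, at 30.7 and 21.8. CXCL16 came next at 2.75 ± 0.081, then CXCL3 at 1.53 ± 0.46, CXCL1 at 1.25 ± 0.75 and CCL5 at 1.08 ± 0.11 CPM per kb, where CXCL1 overlapped both of its neighbours. CXCL5, CCL2, CCL20 and CXCL6 were each under 0.4 CPM per kb. In HCC44 DMSO, CXCL8 again ranked first at 346 ± 89 CPM per kb, followed by CXCL5 at 161 ± 13, and these groups did not overlap. CXCL1 at 70.1 ± 8.7 and CXCL2 at 54.9 ± 21 overlapped, and CCL20 lay below both at 28.3 ± 10. CXCL6 at 15 ± 0.61 lay above CXCL3 at 12.3 ± 2.2 and CXCL16 at 8.56 ± 2.1, with no overlap between them. CCL5 was at 0.704 ± 0.03 CPM per kb and CCL2 at 0. With ACBI1 the order changed: in H1975 CXCL2 ranked first at 17 ± 7.7 CPM per kb, followed by CXCL16 at 8.37 ± 0.49 and CXCL8 at 5.77 ± 0.95. In HCC44 with ACBI1, CXCL8 at 240 ± 120 and CXCL5 at 232 ± 27 CPM per kb overlapped, and CCL20 stood at 6.56 ± 0.88.

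In H1975, ACBI1 lowered CXCL8, the neutrophil attractant that ranked first per kb in that line, and raised CXCL5, CXCL6 and CXCL16. Of the 10 chemokines, 3 rose, 1 fell and 6 were not called. Over all 21307 tested genes 31.3% were called, 14.6% as higher and 16.7% as lower. Rises made up 46.6% of those calls, and 72.3% with library totals in place of TMM factors, a scaling that raised the median gene by 0.203. The median log2 fold change of the 10 was 0.39, against -0.01 over all tested genes.

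CXCL8 was at 69.9 and 49.6 CPM with DMSO and at 14.6 and 11.6 CPM with ACBI1. Both ACBI1 libraries lay well below both DMSO libraries, and the fitted change was -2.19 ± 0.38 on the log2 scale, a 4.55-fold fall (adjusted p 0.00485). CXCL16 was at 7.53 and 7.85 CPM with DMSO and at 24.4 and 22.4 CPM with ACBI1. The replicates were close and the groups far apart, with a 3.04-fold rise (1.60 ± 0.17, adjusted p 9.6e-05). CXCL5 was at 0.932 and 0.784 CPM with DMSO and at 1.77 and 2.64 CPM with ACBI1, a 2.57-fold rise (1.36 ± 0.22, adjusted p 0.00116). CXCL6 had 9 and 6 counts with DMSO and 30 and 38 counts with ACBI1, a 4.05-fold rise (2.02 ± 0.33, adjusted p 0.00112). CXCL5 and CXCL6 rose from very low levels, and with ACBI1 both stayed far below their levels in HCC44 DMSO.

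CXCL1 was at 2.30 and 0.932 CPM with DMSO and at 2.57 and 2.25 CPM with ACBI1 (0.58 ± 0.44, adjusted p 0.368). The DMSO replicates were so far apart that the ACBI1 libraries lay beside the higher of them. CXCL2 was at 38.6 and 15.6 CPM with DMSO and at 33.6 and 17.3 CPM with ACBI1, with overlapping groups (-0.09 ± 0.51, adjusted p 0.919), and the sign of this value depended on the scaling, at 0.116 with library totals. CXCL3 was at 4.12 and 2.68 CPM with DMSO and at 5.09 and 3.95 CPM with ACBI1 (0.41 ± 0.38, adjusted p 0.448). CCL5 (-0.10 ± 0.31) and CCL2 (0.37 ± 0.51, 14 to 32 counts per library) overlapped between the groups and were not called. The sign of the CCL5 value also changed with library totals, to 0.101. CCL20 had 10 and 3 counts with DMSO and 3 and 0 with ACBI1, 4.79 times more with DMSO (exact 95% interval for counting error 1.32 to 26.2), and it was not called (adjusted p 0.211).

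The fall of CXCL8 kept its sign in every alternative run but missed the threshold without the filter (-2.19) and when any single H1975 library was left out, at -1.92 without DMSO replicate 1, -2.36 without DMSO replicate 2, -2.33 without ACBI1 replicate 1 and -2.002 without ACBI1 replicate 2. CXCL5, CXCL6 and CXCL16 were called in all alternatives.

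In HCC44, ACBI1 raised CXCL1 and CXCL5, lowered CCL20 and lowered CXCL16, the gene it had raised in H1975. Of the 10 chemokines, 2 rose, 2 fell and 6 were not called, where 34.9% of all tested genes were called, 17.5% as higher and 17.4% as lower. Rises made up 50% of those calls, and 60.5% with library totals. CCL2 had 0 counts with DMSO and 2 with ACBI1, so no fold change is given for it. The median log2 fold change of the other 9 was 0.45, against 0.01 over all tested genes.

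CCL20 was at 56.5 and 33.7 CPM with DMSO and at 9.46 and 11.4 CPM with ACBI1. All ACBI1 values lay below the lower DMSO value, with a 4.32-fold fall (-2.11 ± 0.29, adjusted p 0.000602). CXCL16 was at 28.1 and 19.7 CPM with DMSO and at 13.0 and 11.9 CPM with ACBI1, a 1.92-fold fall (-0.94 ± 0.17, adjusted p 0.00132). CXCL1 was at 98.8 and 82.9 CPM with DMSO and at 251.8 and 147.3 CPM with ACBI1, a 2.20-fold rise (1.14 ± 0.33, adjusted p 0.0336). CXCL5 was at 384.8 and 433.2 CPM with DMSO and at 637.6 and 542.1 CPM with ACBI1, a 1.44-fold rise (0.53 ± 0.14, adjusted p 0.0143). For CXCL1 and CXCL5 both ACBI1 libraries lay above both DMSO libraries, although the ACBI1 replicates of CXCL1 were far apart.

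CXCL8 was at 929.4 and 642.9 CPM with DMSO and at 734.6 and 357.8 CPM with ACBI1. The groups overlapped and the change was not called (-0.53 ± 0.35, adjusted p 0.3). CXCL2 was at 104.2 and 60.6 CPM with DMSO and at 162.3 and 104.5 CPM with ACBI1 (0.70 ± 0.50, adjusted p 0.337). CXCL3 was at 30.7 and 23.9 CPM with DMSO and at 61.8 and 30.3 CPM with ACBI1 (0.76 ± 0.34, adjusted p 0.128). CXCL6 was at 31.9 and 33.8 CPM with DMSO and at 37.9 and 32.4 CPM with ACBI1 (0.10 ± 0.14, adjusted p 0.643), and CCL5 stayed between 1.03 and 1.75 CPM (0.45 ± 0.33, adjusted p 0.32). ACBI1 replicate 1 held the highest value of the 4 HCC44 libraries for CXCL1, CXCL2, CXCL3, CXCL5 and CXCL6.

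The call of CXCL1 was lost with DESeq2 (1.13), without the filter (1.14), without HCC44 ACBI1 replicate 1 (0.70), without HCC44 DMSO replicate 1 (1.26), without HCC44 DMSO replicate 2 (1.02) and without either H1975 ACBI1 library (1.14 for each). The call of CXCL5 was lost without HCC44 DMSO replicate 1 (0.44) and without HCC44 ACBI1 replicate 1 (0.41), while those of CCL20 and CXCL16 held in all alternatives. CXCL8 was called as lower without HCC44 ACBI1 replicate 1 (-1.13) and CXCL3 as higher without HCC44 ACBI1 replicate 2 (1.18).

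**Figure D2:**
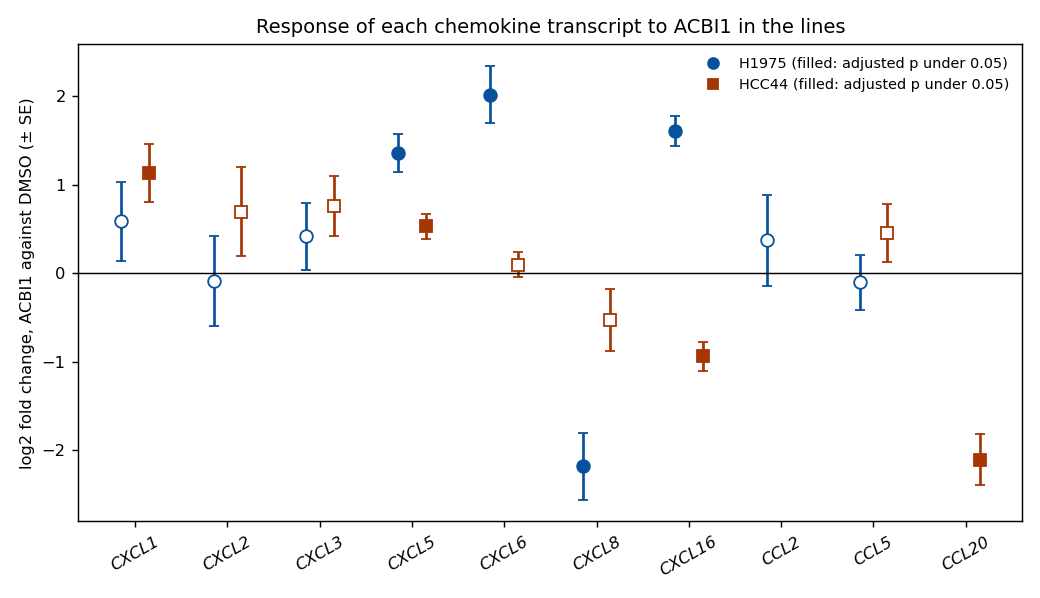
Log2 fold change of ACBI1 against DMSO for each chemokine, with its SE, in H1975 (blue circles) and HCC44 (brown squares); filled symbols passed an adjusted p of 0.05. CXCL16 lies at 1.60 in H1975 and at -0.94 in HCC44, CXCL8 is filled in H1975 only and CCL20 in HCC44 only, and CCL2 in HCC44 is not drawn because it had 2 counts in all, nor CCL20 in H1975, which had 3 counts with ACBI1.

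The difference between the lines in the response to ACBI1, HCC44 minus H1975, was called for 3 of the 10 chemokines, each time with the less positive response in HCC44, where 18.6% of all tested genes were called, 10.2% as higher and 8.4% as lower. Of those calls 54.9% were higher, and 40.5% with library totals. CXCL16 differed by -2.55 ± 0.24 on the log2 scale (adjusted p 0.000123), with a rise in H1975 and a fall in HCC44. CXCL6 differed by -1.92 ± 0.36 (adjusted p 0.0049), with a rise in H1975 and no called change in HCC44. CXCL5 rose in both lines, and the difference of -0.83 ± 0.26 (adjusted p 0.0487) is a larger rise in H1975. CXCL8 differed by 1.66 ± 0.51 in the other direction and was not called (adjusted p 0.0636), although its fall was called in H1975 only. For CXCL1, CXCL2, CXCL3 and CCL5 the differences of 0.34 to 0.79 had SEs of 0.45 to 0.71 and were not called. CCL20 and CCL2 were too scarce in 1 of the lines for a difference to be read.

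The call of CXCL5 was lost with non-robust dispersion (-0.83), without either H1975 DMSO library (-0.95 without replicate 1 and -0.76 without replicate 2), without H1975 ACBI1 replicate 2 (-0.54), without either HCC44 DMSO library (-0.92 and -0.74) and without HCC44 ACBI1 replicate 2 (-0.72). The difference of CXCL8 was called with DESeq2 (1.62), with non-robust dispersion (1.66), with genes kept at 1 CPM in 2 libraries (1.66) and without HCC44 ACBI1 replicate 2 (2.09).

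CXCL16 shares 85 exon bases, 3.04% of its merged exons, with MED11 on the opposite strand, and the strand setting of the counting is not given in the sources used here. MED11 changed by 0.03 ± 0.13 in H1975 and by 0.04 ± 0.13 in HCC44 and was called in neither line, so its counts did not move with those of CXCL16. CXCL6 shares 94 exon bases with the pseudogene PPBPP1, which had 0 counts in all libraries. Of the 50-base windows in their annotated transcripts, 4.81% of those of CXCL1, 12.5% of those of CXCL2 and 6.01% of those of CXCL3 also occur in another of the 10 genes, so reads in these stretches could be split or dropped in counting. The other 7 genes shared no such window.

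The make-up of the ELR CXC transcripts changed with ACBI1 in both lines, mainly in the share of CXCL8. Per kb of exon, CXCL8 made up 50.8% and 63.2% of the summed level of the 6 ELR CXC genes in the H1975 DMSO libraries and 18.9% and 23.8% with ACBI1. In HCC44 it made up 55.6% and 48.4% with DMSO and 35% and 27% with ACBI1. In both lines the ACBI1 libraries lay below the DMSO libraries, with no test made of these shares. The shares within a library depend on each other, so a share can move without a called change of its gene. CXCL8 in HCC44 (-0.53 ± 0.35) and CXCL2 in H1975 (-0.09 ± 0.51) were not called. In H1975 the largest share with ACBI1 was that of CXCL2, at 65.9% and 53.8%, against 42.5% and 30.2% with DMSO. In HCC44 the share of CXCL1 was 10.4% and 11% with DMSO and 21.1% and 19.5% with ACBI1, and that of CXCL5 was 20.6% and 29.2% with DMSO and 27.2% and 36.7% with ACBI1. The summed level itself was 60.5 and 34.5 CPM per kb in H1975 DMSO and 34 and 21.4 in H1975 ACBI1, and 734.4 and 583.9 in HCC44 DMSO and 921.9 and 582.7 in HCC44 ACBI1. The treatments overlapped in HCC44 and did not in H1975, where the lower DMSO and higher ACBI1 libraries were close.

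**Figure D3:**
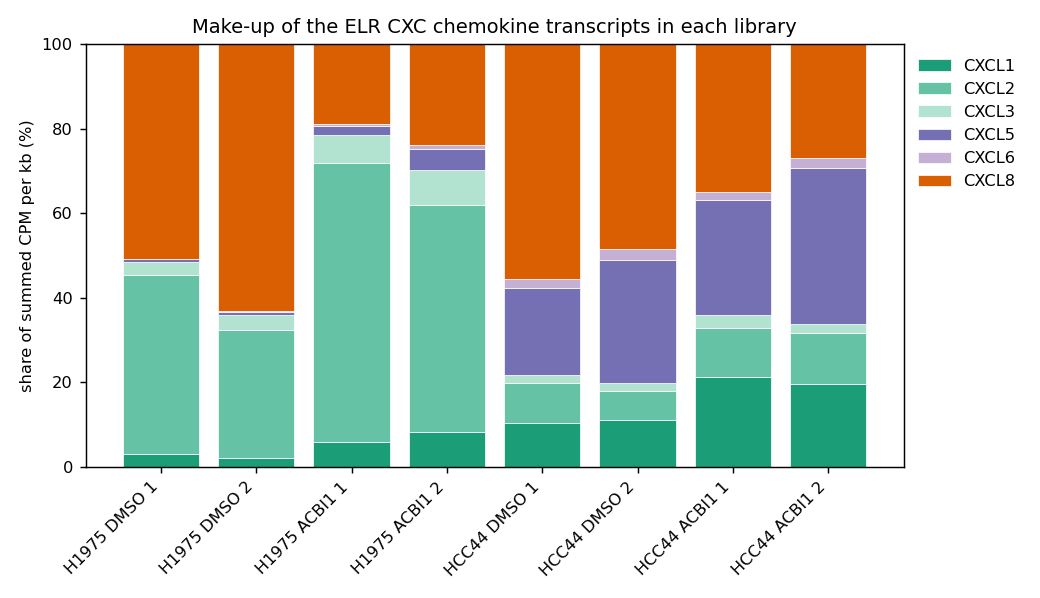
Share of each ELR CXC gene in the summed CPM per kb of the 6 genes, one bar per library, stacked to 100%. The orange CXCL8 part is 48.4% to 63.2% in the 4 DMSO libraries and 18.9% to 35% in the 4 ACBI1 libraries, and the purple CXCL5 part is wide in HCC44 only.

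Among the 36 other chemokine ligands in the tables, 7 passed the filter, and none of them was called as higher in either line. In H1975, 4 of the 7 fell and in HCC44 3 of the 7 fell. Over all tested genes 16.7% fell and 14.6% rose in H1975, and 17.4% fell and 17.5% rose in HCC44. CX3CL1, a membrane-anchored ligand that is shed like CXCL16 and attracts monocytes and T cells through CX3CR1, fell in H1975 from a mean of 9.29 ± 1.1 to 2.16 ± 0.40 CPM (-2.10 ± 0.40, adjusted p 0.0041). In HCC44 it fell from 2.93 ± 1.1 to 0.75 ± 0.54 CPM (-1.96 ± 0.44, adjusted p 0.00777), at -2.99 without ACBI1 replicate 2 and no longer called without DMSO replicate 2 (-1.52). CCL22 and CCL26 fell in both lines and CCL24 in H1975, all under 1 CPM, and these 3 are named after their values were seen. CCL22 and CCL24 had at most 5 counts in any ACBI1 library and passed the filter on low counts only through DMSO libraries. Their falls, and the list counts and medians that hold them, are therefore not independent of the filter. With a gene of at most 3 counts left out, the median log2 fold change of the other 6 was -2.17 in H1975 and -0.70 in HCC44.

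Of 23 chemokine receptors and atypical receptors, 9 passed the filter. CXCR1 and CXCR2, the receptors of the ELR CXC ligands, did not pass it, nor did CXCR6, CCR2 and CCR6, which bind CXCL16, CCL2 and CCL20. In H1975, 2 receptors rose and 4 fell (median of 9 genes -1.16), where 14.6% of all tested genes rose and 16.7% fell. In HCC44 1 rose and 2 fell (median of 6 genes with over 3 counts -0.60), where 17.5% of all tested genes rose and 17.4% fell. ACKR3, an atypical receptor that scavenges CXCL12, fell in H1975 from a mean of 6.32 ± 0.54 to 1.01 ± 0.015 CPM (-2.65 ± 0.26, adjusted p 6.98e-05). In HCC44 ACKR3 was scarce, at means of 0.395 CPM with DMSO and 0.206 CPM with ACBI1 (-0.93 ± 0.37, not called). CCRL2, an atypical receptor that binds chemerin, fell in H1975 (-1.30 ± 0.24) and in HCC44, there from a mean of 2.20 ± 0.30 to 0.262 ± 0.037 CPM (-3.06 ± 0.29, adjusted p 2.72e-05). CCR10, the receptor of CCL27 and CCL28, rose in H1975 (1.37 ± 0.23) and in HCC44 (1.97 ± 0.27). CCR3 fell in H1975 from a mean of 4.56 ± 0.63 to 1.83 ± 0.67 CPM (-1.31 ± 0.30, adjusted p 0.00734), a call lost without ACBI1 replicate 2 (-0.96).

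Among genes that process or present chemokines, 15 were tested. In H1975 9 fell and none rose (median -0.38), where 16.7% of all tested genes fell and 14.6% rose. In HCC44 5 fell and 3 rose (median -0.04), where 17.4% of all tested genes fell and 17.5% rose. MMP9, a metalloproteinase that trims CXC ligands, fell in H1975 from a mean of 20.5 ± 4.2 to 2.47 ± 0.17 CPM (-3.05 ± 0.21, adjusted p 8.4e-06). It also fell in HCC44 (-1.53 ± 0.38, adjusted p 0.01), where it was under 1 CPM and the call was lost without DMSO replicate 2 (-1.33) or ACBI1 replicate 1 (-1.45). The heparan sulfate carrier GPC1 fell in H1975 from a mean of 217.1 ± 19 to 109.8 ± 1.6 CPM (-0.98 ± 0.12) and was at 76.1 ± 4.8 and 81.1 ± 15 CPM in HCC44 (0.09 ± 0.12, adjusted p 0.603). SDC1, a syndecan that holds chemokines at the cell surface, fell in H1975 (-0.35 ± 0.080, adjusted p 0.00692) and rose in HCC44 from 78.2 ± 1.1 to 143.8 ± 5.2 CPM (0.88 ± 0.0805, adjusted p 2.48e-05). The H1975 call of SDC1 was lost with library totals (-0.15), without DMSO replicate 2 (-0.27), without ACBI1 replicate 1 (-0.33) and without ACBI1 replicate 2 (-0.32). DPP4, a peptidase that truncates chemokines, fell in H1975 (-0.91 ± 0.26, adjusted p 0.0217), and this was lost with library totals (-0.71), without DMSO replicate 1 (-0.96) or 2 (-0.81) and without ACBI1 replicate 2 (-0.72). MMP1, a collagenase, fell in HCC44 (-1.84 ± 0.55, adjusted p 0.0275), which was lost without DMSO replicate 1 (-1.16), ACBI1 replicate 1 (-1.62) or ACBI1 replicate 2 (-2.09). The sheddases ADAM10 and ADAM17, which release CXCL16 and CX3CL1, were both tested and only ADAM17 was called, as higher in HCC44.

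Among inducing cytokines, sensors and their receptors, 22 genes were tested. In H1975 11 fell and 3 rose (median -0.36), where 16.7% of all tested genes fell and 14.6% rose. In HCC44 11 fell and 1 rose (median -0.65 of 21 genes with over 3 counts), where 17.4% of all tested genes fell and 17.5% rose. IL18 rose in H1975 (0.80 ± 0.24) and in HCC44 (1.57 ± 0.25). TNFRSF1B and OSM rose in H1975 only, and OSM fell in HCC44. These risen genes were named after their values were seen. IL1A, an inducer of CXCL1 and CXCL8, fell in HCC44 from a mean of 150.3 ± 2.6 to 5.41 ± 3.0 CPM (-4.80 ± 0.34, adjusted p 4.63e-05). IL1B, which acts on the same receptor, fell there from a mean of 143.6 ± 39 to 0.391 ± 0.31 CPM (-8.52 ± 0.44, adjusted p 1.25e-05). In H1975 the libraries of a group together held 180 counts of IL1B with DMSO and 2 with ACBI1, which is 99.5 times more with DMSO (exact 95% interval for counting error 27.1 to 828). IL1RN, the antagonist of the IL1 receptor, fell in H1975 from a mean of 1.87 ± 0.47 to 0.162 ± 0.11 CPM (-3.50 ± 0.45, adjusted p 0.000309). It was also called as lower in HCC44, with 36 counts with DMSO and 1 with ACBI1. That is 35.8 times more with DMSO (exact 95% interval for counting error 6.03 to 1450). IL1RN, TLR4 and NOD2 passed the filter on low counts only through DMSO libraries, so their falls are not independent of it. TLR2, a sensor of bacterial lipoproteins, fell in HCC44 (-1.82 ± 0.28) and TLR3, a sensor of double-stranded RNA, in H1975 (-1.62 ± 0.33) and in HCC44 (-1.59 ± 0.41), where it was under 1 CPM and the call was lost without DMSO replicate 1 (-1.33) or ACBI1 replicate 2 (-1.58). IL1A was under 1 CPM in H1975, where its call (-2.23 ± 0.64, adjusted p 0.0341) was lost without any single H1975 library, at -2.33 to -2.07. The part of IL1 transcripts in the chemokine changes was not tested.

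Among NF-kB and AP-1 regulators, 26 genes were tested. In H1975 9 fell and 2 rose (median -0.24), where 16.7% of all tested genes fell and 14.6% rose. In HCC44 4 fell and 9 rose (median -0.06), where 17.4% of all tested genes fell and 17.5% rose. In HCC44 the risen genes included the NF-kB subunit genes REL, RELB, NFKB1 and NFKB2, which were looked up after the counts were known. Those that rose in H1975 were RELB (0.73 ± 0.0925, adjusted p 0.000262) and NFKBIB (0.58 ± 0.0823, adjusted p 0.000509), and NFKBIB rose in HCC44 too. RELA was called in neither line. The difference between the lines in the response was not called for any of these subunit genes. ZC3H12A, a nuclease that degrades chemokine and cytokine transcripts, fell in H1975 from a mean of 22.3 ± 4.7 to 9.36 ± 1.1 CPM (-1.25 ± 0.18) and in HCC44 from a mean of 130.4 ± 12 to 49.6 ± 10 CPM (-1.39 ± 0.17, adjusted p 0.000231). TNFAIP3, a feedback inhibitor of NF-kB, fell in H1975 (-1.37 ± 0.33, adjusted p 0.0174), at -0.82 without DMSO replicate 1 and not called without ACBI1 replicate 2 (-1.08) or without the filter (-1.37). NFKBIZ, a nuclear coactivator of NF-kB, fell in H1975 from a mean of 76.6 ± 29 to 21.7 ± 6.9 CPM (-1.82 ± 0.46, adjusted p 0.0225), and the call was lost without the filter (-1.82) and without any single H1975 library (-2.15 to -1.37). The AP-1 genes FOSL1 (-0.99 ± 0.18, adjusted p 0.00286) and JUN (-1.11 ± 0.27, adjusted p 0.0173) fell in HCC44. JUNB rose from 441.5 ± 66 to 787.4 ± 18 CPM (0.83 ± 0.11, adjusted p 0.000204) and JUND from 220 ± 49 to 399.4 ± 54 CPM (0.86 ± 0.18, adjusted p 0.00579), both named after their values were seen, while FOS, FOSL2 and ATF3 were not called. JUN was at -0.69 without HCC44 DMSO replicate 1, and its call was lost without the filter (-1.11), without HCC44 ACBI1 replicate 1 (-0.85) and without any single H1975 library (-1.11 to -1.12).

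Of 6 myeloid growth factor genes, 3 fell in H1975 (median -1.05) and 2 in HCC44 (median -0.26), and none rose. Over all tested genes 16.7% fell and 14.6% rose in H1975, and 17.4% fell and 17.5% rose in HCC44. CSF3, the growth factor of neutrophils, fell in HCC44 from a mean of 219.2 ± 49 to 9.70 ± 6.0 CPM (-4.50 ± 0.44, adjusted p 0.000297). In H1975 it had 8 counts in the DMSO libraries together and 4 in those with ACBI1. CSF2, the granulocyte and macrophage factor, fell in HCC44 from a mean of 10.9 ± 0.73 to 1.49 ± 0.95 CPM (-2.87 ± 0.44, adjusted p 0.00101). In H1975 CSF2 also fell (-1.74 ± 0.52, adjusted p 0.0316), a call lost without DMSO replicate 1 (-1.14), ACBI1 replicate 1 (-2.03) or ACBI1 replicate 2 (-1.45). CSF1, the macrophage factor, fell in H1975 from a mean of 54.9 ± 8.4 to 27.4 ± 4.9 CPM (-1.005 ± 0.14, adjusted p 0.000403) and was at 100.6 ± 5.5 and 98.2 ± 1.8 CPM in HCC44 (-0.03 ± 0.13), where its sign depended on the scaling. KITLG, the ligand of the KIT receptor, fell in H1975 from a mean of 38 ± 1.2 to 12.9 ± 0.46 CPM (-1.56 ± 0.16, adjusted p 8.49e-05). Its value in HCC44, 0.19 ± 0.16, was not called.

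**Figure D4:**
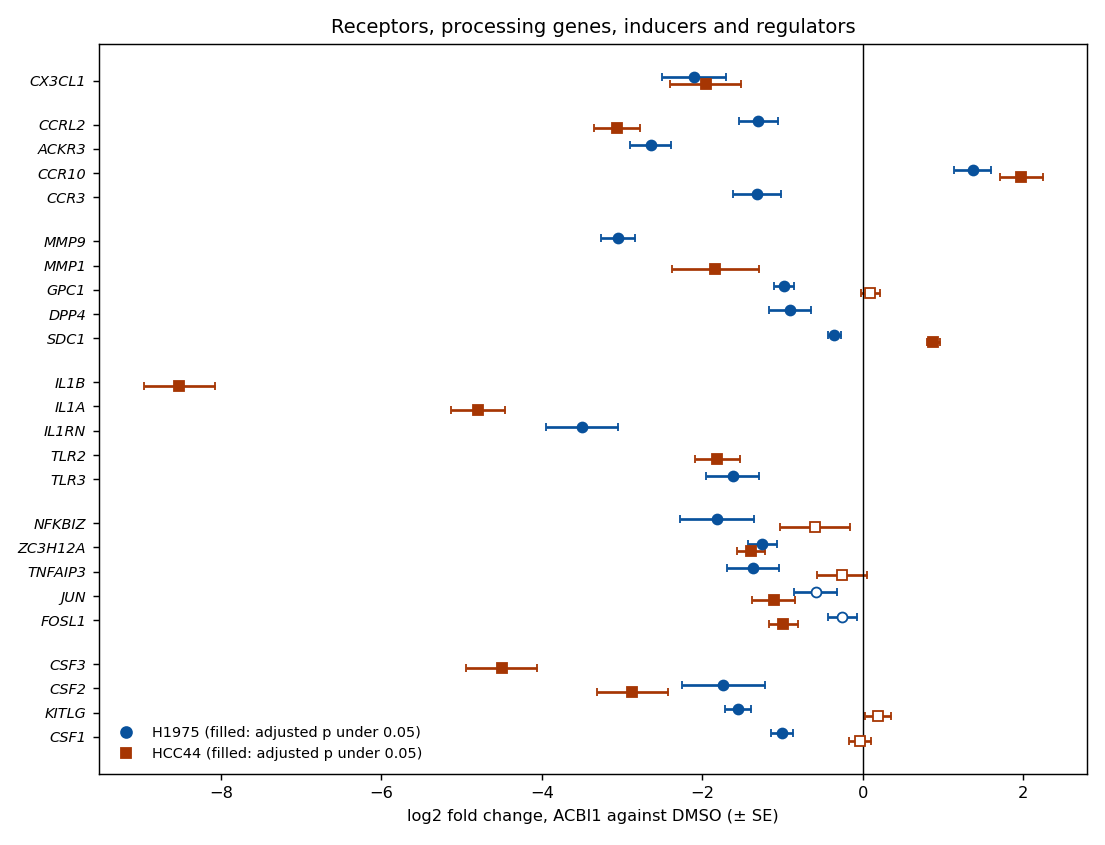
Log2 fold change of ACBI1 against DMSO, with its SE, for the named ligand, receptor, processing, inducer, regulator and growth factor genes in H1975 (blue circles) and HCC44 (brown squares), drawn only in lines where a group mean reached 1 CPM and each group had over 3 counts; filled symbols passed an adjusted p of 0.05. The filled symbols lie to the left of 0 except those of CCR10 in both lines and of SDC1 in HCC44. The genes drawn were picked from each list by size of called change, so their sides do not describe the whole lists. Of the NF-kB and AP-1 regulators, 2 rose and 9 fell in H1975, and 9 rose and 4 fell in HCC44. No risen regulator, such as RELB, is drawn, nor is IL18, which rose in both lines.

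The genes whose pattern was most like that of a called chemokine were sought by the Pearson correlation of log2 CPM over the 8 libraries, with each line centred on its own mean, among 11658 genes with at least 5 CPM on average. For CXCL16 they were SPHK2 (r = 0.993) and MAPKAPK5-AS1 (0.9916), and for CXCL8 RBM39 (0.9903) and C3orf62 (0.9897). For CCL20 they were GCN1 (0.9886) and B4GALNT3 (0.9861), for CXCL1 GPC2 (0.9858) and OFD1 (0.974), for CXCL5 EEF1AKMT1 (0.995) and FAM234B (0.9848), and for CXCL6 MRPL52 (0.9925) and GRAMD1C (0.9906). None of these 12 genes was another of the 10 chemokines, although CCL2 and CCL5 were under the 5 CPM cut and could not appear. Between chemokines the values were also high for some pairs, at 0.939 for CXCL5 and CXCL6 and 0.927 for CXCL1 and CXCL3. They ran from -0.858 (CXCL5 and CXCL8) to 0.962 (CXCL3 and the scarce CCL2). The fold changes of the 12 genes were smaller than that of the chemokine in the line where it was called. The libraries share their line, treatment and replicate number, so these values describe likeness in 8 libraries only.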

How the data were processed

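RNA of 8 libraries (4 groups of 2) was counted per gene. The deposited counts were made by the authors; TopHat2 2.1.1, HTSeq 0.11.0 and build hg38 are named per the submitters' processing notes, and the annotation and strand setting are not given in the sources used here. The 5 summary rows, 14.3 to 15.8% of each table, were left out. Genes were kept with filterByExpr on the 4 groups and scaled with TMM factors. One edgeR 4.0.16 model (R 4.3.3) with a mean per group, 4 residual degrees of freedom and robust dispersion gave two-sided quasi-likelihood tests of 4 contrasts, with Benjamini-Hochberg adjustment over all tested genes, called under 0.05. Each SE was taken as the log2 fold change over the square root of its F statistic. The members and lists were chosen with earlier results of these data known. Named outside the members were, per list, up to 5 called genes with at least 1 CPM in the line, by size of change, and the 2 genes most like each called member with at least 5 CPM. Replicates differed by more than sampling noise (chi-square per degree of freedom 24 to 48.4). In simulated counts (3 draws, 200 genes changed by 1.5, 2 or 4 times, 20816 to 20841 tested), 59.8% of changed genes were recovered in H1975 and 62.5% in HCC44. Of the calls, 12.9% and 10.1% were false, above the 0.05 set. Far fewer genes were changed there than were called in the data, so these shares do not carry over to the calls here. DESeq2 1.42.0, other factors, filters, dispersions, single-line fits, a replicate block and left-out libraries were the alternatives. Exon lengths came from GENCODE release 29. Plots used matplotlib 3.10.9.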

Additional observations from a re-analysis of the deposited data

Results flagged for a closer look

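H1975 and HCC44 responded differently to ACBI1, by the test of the difference itself, in 3 of the 10 chemokines and in 7 of the other 24 named genes, which had been picked for responding to ACBI1. Over all tested genes 18.6% were called for this difference. As HCC44 minus H1975 on the log2 scale the values were -2.55 for CXCL16, -1.92 for CXCL6 and -0.83 for CXCL5. They were -1.76 for CCRL2, 1.71 for ACKR3, 1.52 for MMP9, 1.08 for GPC1, 1.23 for SDC1, 1.74 for KITLG and 0.97 for CSF1. Among these genes CXCL16 and SDC1 were called in opposite directions in the lines. Other genes of the lists, not among the named ones, were too, with a called difference. These included OSM (-3.51), COL1A1 (3.04), KRT7 (2.16), NFKBIA (1.07) and NDST1 (0.64). Without single libraries the differences of ACKR3 (1.36 to 1.71 where lost) and MMP9 (1.24 to 1.73 where lost) missed the threshold. ACKR3 was lost without H1975 DMSO replicate 2, either H1975 ACBI1 library, HCC44 DMSO replicate 2 or HCC44 ACBI1 replicate 2, and MMP9 without H1975 DMSO replicate 2 or any single one of the other libraries except H1975 DMSO replicate 1. MMP9 was also lost with RLE factors (1.49) and with library totals (1.41).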

How the results depend on the processing

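With library totals in place of TMM factors the median gene moved by 0.091 in HCC44 and by -0.112 for the difference on the log2 scale. With an adjusted p under 0.01 the calls numbered 3691 in H1975, 4681 in HCC44 and 1654 for the difference, and 2 of the 10 chemokines were called in HCC44. With the replicate number within each line as a block, 7 chemokines were called in HCC44 among 9533 genes (7438 without the block), CXCL2 (0.713), CXCL3 (0.682) and CXCL8 (-0.592) being added, and 5 for the difference, CXCL2 (0.747) and CXCL8 (1.585) being added, among 6358 genes (3967 without). Deviations of libraries with the same number correlated at 0.598 (H1975) and 0.175 (HCC44) over 14777 genes. The labels name no shared batch and 2 pairs a line do not settle whether the numbers pair the libraries. With each library left out, 3690 to 7161 genes and 3 to 4 chemokines were called in H1975, 4945 to 7342 genes and 2 to 5 chemokines in HCC44, and 2341 to 4134 genes and 2 to 3 chemokines for the difference. Values that were not called changed sign as follows. In H1975 CXCL2 was 0.116 with library totals and -0.603 to 0.702 with a library left out, with 0.34 between, and CCL5 was 0.101 and -0.535 to 0.268. In HCC44, with a library left out, CXCL6 ranged from -0.017 to 0.205, GPC1 from -0.106 to 0.27, DPP4 from -0.546 to 0.304, KITLG from -0.095 to 0.425 and CSF1 from -0.094 to 0.026. CSF1 was 0.057 with library totals and 0.018 with upper-quartile factors. For the difference, CXCL1 ranged from -0.229 to 1.018, CXCL2 from -0.006 to 1.298, CXCL3 from -0.26 to 0.768, CCL2 from -0.372 to 3.805 and CCL20 from -1.06 to 3.579, and CCL20 was -0.047 with library totals. The causes were not tested. CCL20 in H1975 was called without the filter (-2.168). The alternatives for named genes outside the 10 chemokines were added after the data had been seen. The block also ended the calls of IL1A in H1975 (-2.233) and JUN in HCC44 (-1.092). The 1 CPM filter gave no value for CCL2, and single-line fits gave none for CCL20 in H1975 and CCL2 in HCC44. Depth limits CCL2 and CCL20 in the line where each is near 0 counts.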
